A study of Xenopus laevis with 12 samples.

Results

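The gene esrp1 was followed as its L and S homeologs, the copies that remain from the genome duplication of the frog Xenopus laevis. Members were all rows of the deposited count table with base symbol esrp1 or esrp2. There were 2 such rows of 18892, esrp1.L and esrp1.S, and 0 rows carried the symbol esrp2, so its paralog is not analysed here. RefSeq (assembly Xenopus_laevis_v10.1) lists both copies as protein-coding, and 0 other listed genes overlap either of them.

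Whole embryos at stage 9.5, labelled as early gastrula, were profiled by strand-specific poly-A RNA sequencing in 4 groups of 3 libraries, each made from 3 pooled embryos. The groups were Control, genistein, BIO and Chiron. Genistein, a soy isoflavone that inhibits tyrosine kinases, was added at the 4-cell stage. BIO is 6-bromoindirubin-3'-oxime, Chiron is CHIR 99021, and both inhibit the kinase GSK3 and so activate Wnt signalling. The sources used here do not give doses, the time at which BIO and Chiron were added, or what the Control embryos received, so doses are not known to be matched. No strain, clutch or mutation is named for any group.

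ESRP1, epithelial splicing regulatory protein 1, is an RNA-binding protein with RNA recognition motifs that acts in the nucleus on pre-mRNA. In mammalian epithelial cells it binds UGG-rich sequence near alternative exons and sets the epithelial isoforms of transcripts such as those of FGFR2, CTNND1, CD44 and ENAH. It shares this work with its paralog ESRP2, and both are switched off when epithelial cells turn mesenchymal, where ZEB and SNAI factors repress them. In vertebrate embryos it is known from surface ectoderm and other epithelia. The counts are totals per gene, so they give the level of esrp1 transcripts and hold no measure of exon choice in the genes that ESRP1 splices.

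Both copies fell with genistein and neither passed the test with BIO or Chiron. Transcripts of esrp1.S, the less counted copy, were 53.8% lower in genistein than in Control embryos, and those of esrp1.L were 43.1% lower. Levels are given in CPM, counts relative to library size after trimmed-mean (TMM) scaling. A call means an edgeR p under 0.05 after Benjamini-Hochberg adjustment over all 18791 tested genes.

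The L copy stood at 80.0, 94.7 and 83.4 CPM in Control replicates 1, 2 and 3. It stood at 40.5, 60.6 and 45.8 CPM in genistein replicates 1, 2 and 3. In BIO the 3 libraries held 76.3, 76.2 and 85.0 CPM of esrp1.L, and in Chiron 74.4, 68.7 and 79.2 CPM. The 3 genistein libraries were thus the lowest of the 12, and the highest of them lay below the lowest Chiron library. The means were 86.0 ± 7.70 CPM in Control, 79.2 ± 5.03 in BIO, 74.1 ± 5.25 in Chiron and 49.0 ± 10.4 in genistein (SD, n = 3 each).

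The S copy stood at 43.3, 52.5 and 47.4 CPM in Control replicates 1, 2 and 3. It stood at 20.0, 26.3 and 19.9 CPM in genistein. The BIO libraries held 40.7, 37.8 and 47.7 CPM of esrp1.S, and the Chiron libraries 44.7, 38.4 and 44.6 CPM. Again the 3 genistein values lay below all 9 others, with a wider gap than for the L copy. Group means were 47.8 ± 4.61 CPM in Control, 42.6 ± 3.60 in Chiron, 42.1 ± 5.10 in BIO and 22.1 ± 3.69 in genistein (SD, n = 3 each). The order of the groups was therefore Control, BIO, Chiron and genistein for the L copy and Control, Chiron, BIO and genistein for the S copy. Among the first 3 groups no pair of neighbours passed the test.

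**Figure D1:**
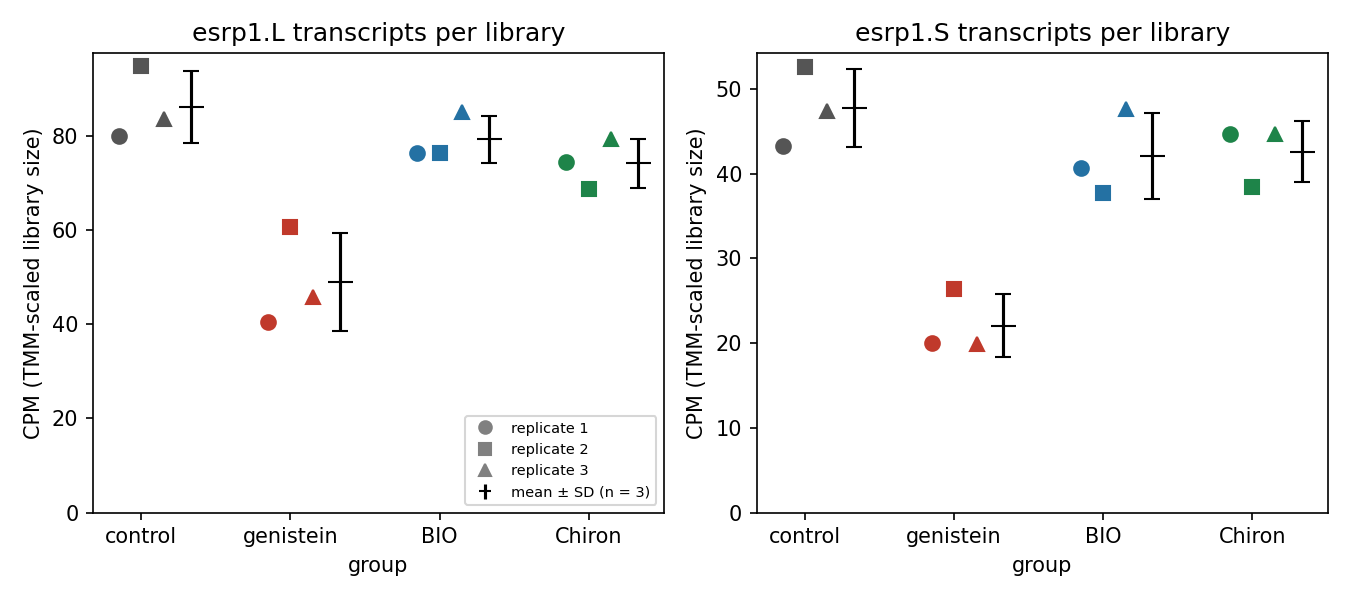
Transcript level of esrp1.L (left) and esrp1.S (right) in each of the 12 libraries, in CPM after TMM scaling. Points are libraries with the shape giving the replicate number, and bars are the mean ± SD of 3 libraries. All genistein libraries, at 40.5 to 60.6 CPM for the L copy and 19.9 to 26.3 CPM for the S copy, lie below all other libraries.

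These values rested on 451 to 1469 counts of esrp1.L and 207 to 815 counts of esrp1.S per library. Counting alone gives a 95% interval of 5.11% to 9.23% on either side of a single library's value for the L copy and of 6.87% to 13.6% for the S copy. Library totals ran from 11091927 to 15486533 counts.

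Against Control, esrp1.S fell 2.16-fold in genistein, a log2 fold change of -1.11 ± 0.15 (SE; 95% interval -1.43 to -0.79; edgeR quasi-likelihood adjusted p = 0.00411). Its p ranked 42 among the 18791 genes, counted from the smallest. The L copy fell 1.76-fold, at -0.81 ± 0.15 on the log2 scale (95% interval -1.13 to -0.49; edgeR adjusted p = 0.014). So 2 of 2 copies were called lower, where 3% of all tested genes were. That share moves with single libraries: 564 genes were called lower in all, 176 without genistein 3 and 2440 without genistein 2. For each copy the genistein and Control libraries did not overlap, which was so in the downward direction for 9.67% of tested genes. When the fit held just these 6 libraries, neither call was reached (edgeR adjusted p = 0.251 for esrp1.L and 0.158 for esrp1.S), although the log2 values stayed at -0.82 and -1.12. The call of esrp1.S held in all 12 fits that left out a single library, while that of esrp1.L was lost without Control 2 (edgeR adjusted p = 0.0613) or genistein 3 (0.0713).

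Where reads cannot be told apart between homeologs the counting may split them, so the counts of the copies were also summed. Together the copies had 122, 149 and 131 CPM in the Control libraries and 59.0, 87.3 and 64.6 CPM in the genistein libraries. The summed gene fell 1.91-fold (log2 -0.93 ± 0.15 SE, edgeR adjusted p = 0.0104), in a table of 13586 tested genes of which 2.62% were called lower. Without genistein 3 its adjusted p was 0.0584.

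Neither GSK3 inhibitor moved esrp1 past the test. In BIO against Control, esrp1.L stood at -0.12 ± 0.14 and esrp1.S at -0.18 ± 0.14 on the log2 scale (adjusted p by edgeR 0.747 and 0.688), where 0.0266% of all tested genes were called. The 95% intervals reached from -0.44 to 0.20 for the L copy and from -0.50 to 0.13 for the S copy. In Chiron against Control the values were -0.22 ± 0.14 for esrp1.L and -0.17 ± 0.14 for esrp1.S (edgeR adjusted p = 0.645 and 0.662). The intervals were -0.53 to 0.10 and -0.48 to 0.15. All 3 Chiron libraries lay below all 3 Control libraries for the L copy, as they did for 9.35% of tested genes in that direction, and the groups overlapped for the S copy. In this contrast edgeR called 0% of tested genes, 1131 had an unadjusted p under 0.05, and DESeq2 called 31 genes higher and 24 lower. These 3 comparisons use the same Control libraries.

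Between compounds, genistein embryos had less esrp1 than BIO embryos. The log2 difference was -0.93 ± 0.15 for esrp1.S and -0.69 ± 0.15 for esrp1.L (edgeR adjusted p = 0.0114 and 0.0308), where 2.94% of tested genes were called lower. The summed copies stood at -0.79 (edgeR adjusted p = 0.0215), where 2.45% of summed genes were called lower. Against Chiron, esrp1.S was lower at -0.95 ± 0.15 (edgeR adjusted p = 0.00831), in a contrast where 2.17% of genes were called lower. The summed copies stood at -0.74 (edgeR adjusted p = 0.0311), with 1.95% of summed genes called lower. The L copy, at -0.60 ± 0.15 against Chiron, missed the threshold (edgeR adjusted p = 0.0574). DESeq2 placed it past it (-0.56, adjusted p = 0.00767), as did edgeR without Control 1 or genistein 2 (adjusted p = 0.0381 and 0.00245). In this contrast DESeq2 called 1348 of 18892 genes lower and edgeR without genistein 2 called 4474, against 407 in the reported fit. The genistein libraries lay below all BIO and all Chiron libraries for both copies, as they did for 14.4% and 16.4% of tested genes. Leaving out single libraries ended the call of esrp1.L against BIO in 9 of 12 fits and kept it without Control 1, Control 2 or genistein 2. The call of esrp1.S against BIO was lost without genistein 3 or BIO 3 (edgeR adjusted p = 0.0595 and 0.064), and its call against Chiron held in all 12. The call of the summed copies against BIO was lost without genistein 1, genistein 3, BIO 1 or BIO 3 (edgeR adjusted p = 0.0641, 0.103, 0.0767 and 0.112). Against Chiron it held in 3 of 12 such fits, those without Control 1, Control 2 or genistein 2 (adjusted p over the 12 from 0.00271 to 0.14 by edgeR).

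BIO and Chiron embryos did not differ in esrp1 past the test. The difference, BIO against Chiron, was 0.10 ± 0.14 for the L copy and -0.02 ± 0.14 for the S copy on the log2 scale (edgeR unadjusted p = 0.521 and 0.901). The 95% intervals of -0.22 to 0.41 and -0.33 to 0.30 leave room for a difference in either direction. Here edgeR called 0% of genes, 217 had an unadjusted p under 0.05, and DESeq2 called 0 higher and 2 lower.

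**Figure D2:**
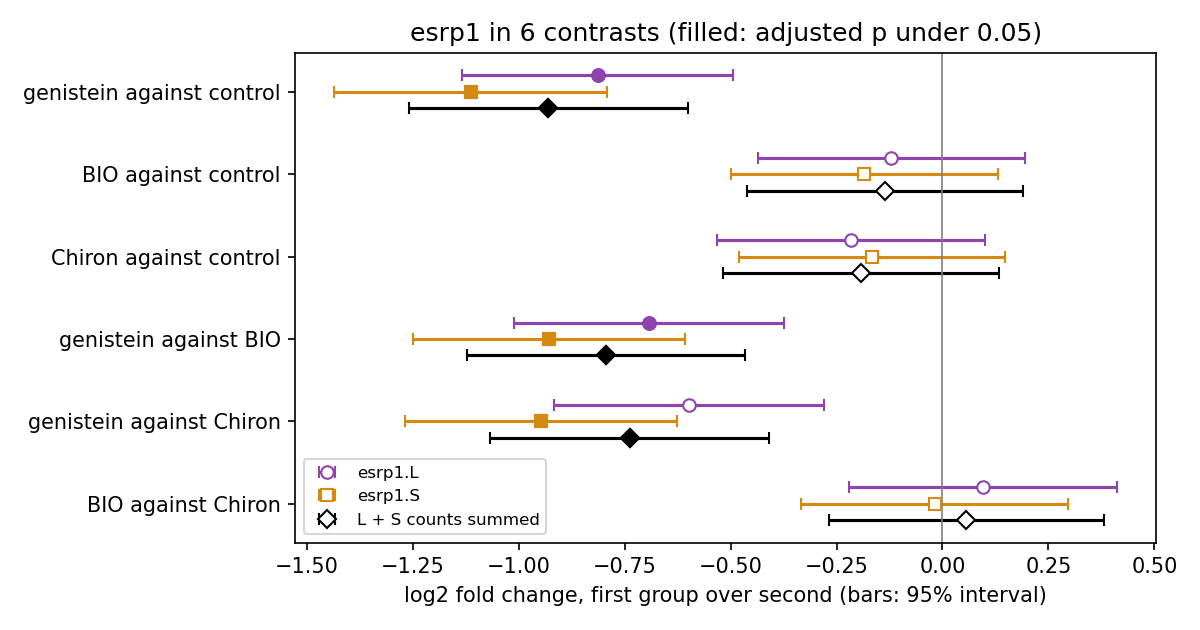
Log2 fold change of esrp1.L, esrp1.S and the summed copies in each of the 6 contrasts, first group over second, with 95% intervals from the edgeR fit of 12 libraries. Filled symbols have an adjusted p under 0.05. The values against Control lie between -1.11 and -0.81 for genistein and between -0.22 and -0.12 for BIO and Chiron, and the esrp1.L value for genistein against Chiron (-0.60) is open.

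The L copy supplied most esrp1 counts in every library, and the 3 highest shares were those of genistein. The share was 64.9%, 64.3% and 63.8% in the Control libraries and 66.9%, 69.7% and 69.7% in the genistein libraries. It was 65.2%, 66.9% and 64.1% in BIO and 62.5%, 64.1% and 64.0% in Chiron. All 3 genistein shares lay above the other 9, although genistein 1 (exact 95% binomial interval 63.2% to 70.5%) and BIO 2 (64.6% to 69.1%) differed by less than their counting error. The mean share was 68.8% ± 1.62 in genistein and 64.3% ± 0.552 in Control (SD, n = 3 each), a difference of 4.48 percentage points. An exact two-sided permutation test gave p = 0.1, the smallest that 3 against 3 allows (0.2 adjusted over 6 pairs of groups). Over 5203 homeolog pairs, the share did not overlap between genistein and Control in 21.6%, between genistein and BIO in 23.3%, and between genistein and Chiron in 25.4%. No transcript length was used, so the share is of counts and not of molecules.

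The esrp1 copies differed in their genistein response by 0.30 on the log2 scale, against a median absolute difference of 0.21 over the 5203 pairs, and 63.6% of pairs differed by less. Among these pairs, 320 had at least 1 copy called lower in genistein against Control and 61 had both, so esrp1 belonged to the 19.1% of such pairs in which both copies were called. Across the 12 libraries esrp1.L and esrp1.S had a Pearson r of 0.97 in log2 CPM, and of 0.90 for the deviations from the group means. The libraries, and any reads split between the copies, are shared by the 2 measures.

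**Figure D3:**
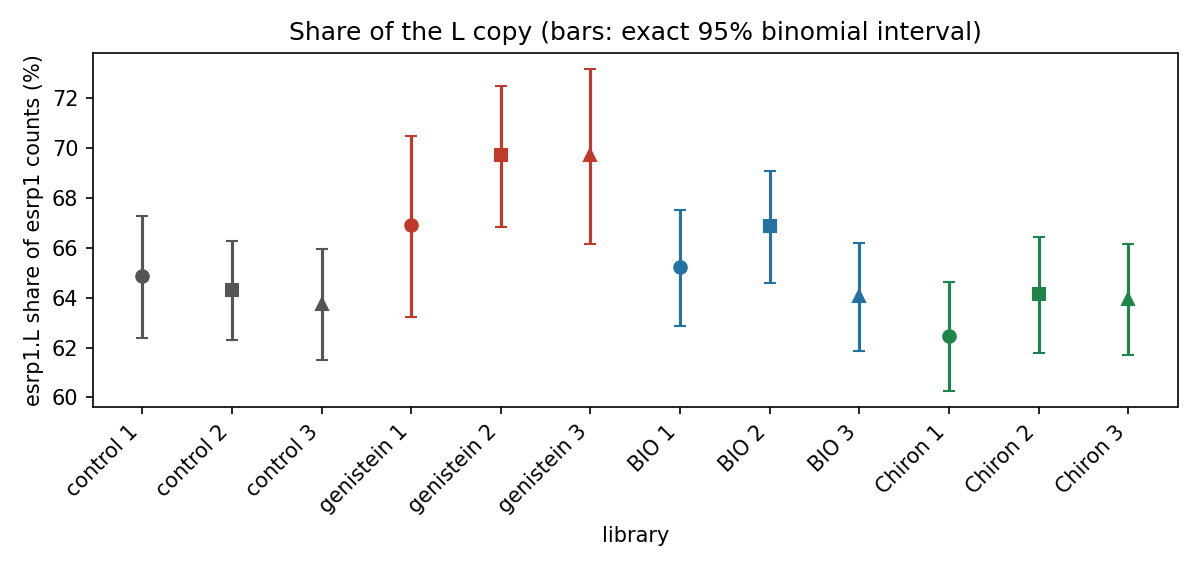
Share of esrp1 counts assigned to the L copy in each library, with exact 95% binomial intervals that cover counting error only. The genistein libraries lie at 66.9% to 69.7% and the other libraries at 62.5% to 66.9%. The vertical axis does not start at 0.

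Libraries differed in their share of mitochondrially encoded transcripts, and within Control and genistein esrp1 was highest in the library with the lowest such share. These transcripts took 13.5%, 0.946% and 4.23% of counts in Control 1, 2 and 3 and 14.1%, 1.46% and 8.37% in genistein 1, 2 and 3, against 0.553% to 2.66% in BIO and Chiron. Control 1 and genistein 1 and 3 also stood apart on the first principal component (-93.2 to -60.9, against 1.11 to 37.2 for the other 9). Control 1 had the lowest esrp1.L and esrp1.S of its group, and genistein 2, with the lowest mitochondrial share of its group, had the highest of both copies.

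The direction of the esrp1 difference was the same on each side of this split. For both copies every genistein library lay below every Control library, so any split had to give this direction. Only the sizes are therefore described. Among Control 1, genistein 1 and genistein 3, the S copy was 2.17-fold and the L copy 1.85-fold lower in genistein. Among Control 2, Control 3 and genistein 2 the S copy was 1.90-fold and the L copy 1.47-fold lower. These ratios have too few libraries for a test of their own. With log2 of the mitochondrial share as a covariate the log2 value was -1.06 for esrp1.S and -0.77 for esrp1.L (edgeR adjusted p = 3.64e-05 and 2.70e-04). That fit called 2042 of 18791 genes lower, against 564 in the reported fit. With Control 1, genistein 1 and genistein 3 left out of the 12-library fit the values were -0.94 for esrp1.S and -0.57 for esrp1.L. That last fit holds genistein 2 as the lone genistein library, with the spread taken from the other groups. Against BIO the esrp1.L value was -0.39 without the same 3 libraries, and the call was lost (edgeR adjusted p = 0.0983).

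**Figure D4:**
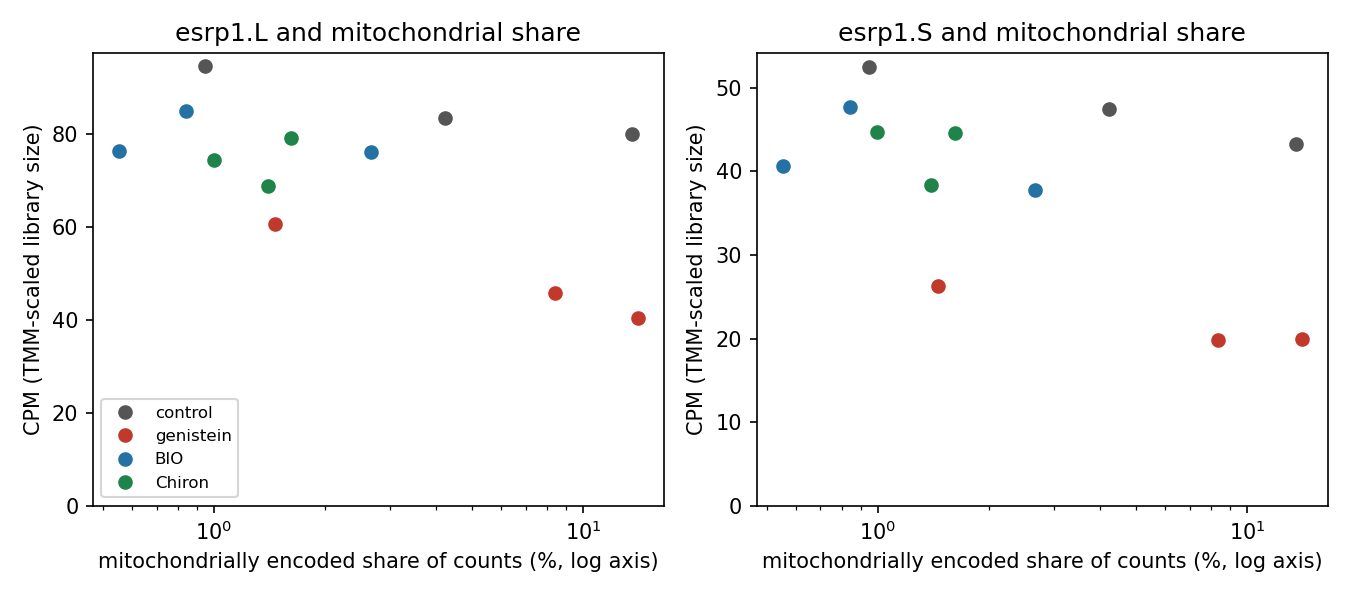
Level of esrp1.L (left) and esrp1.S (right) in CPM against the share of mitochondrially encoded counts (log axis) in each library, coloured by group. Genistein 2, at a share of 1.46%, lies below the 9 Control, BIO and Chiron libraries for both copies, and Control 1, at 13.5%, lies above all genistein libraries.

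Whole embryos were sequenced, so fewer cells that express esrp1 and less esrp1 RNA per cell cannot be told apart. Other epithelial genes were counted beside it as a description, and their counts cannot separate these cases either. Of 58 tested genes for epithelial junctions, keratins and surface proteases, 1 rose in genistein against Control and 0 fell, where 0.362% of all genes rose, and 14 of 58 values were below 0. The median was 0.17 on the log2 scale against 0.03 over all genes. The riser was marveld3.L, a tight junction protein, at 76.4 ± 7.25 CPM in genistein and 57.1 ± 1.04 in Control (log2 0.42 ± 0.10 SE, edgeR adjusted p = 0.0486). No gene of the list was called when scaled by library totals (median 0.06, against -0.09 over all genes). With log2 of the mitochondrial share as a covariate 13 of the list rose, where 1612 of all 18791 genes did. The summed level of these 58 genes ran from 6722 to 9838 CPM over the Control libraries and from 7186 to 12537 CPM over the genistein libraries, and 0 of them were at 0 counts in either group.

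Of 22 copies of epithelial transcription factor genes, 4 fell in genistein and 0 rose, where 3% of all genes fell, and the median was -0.20. Transcripts of tfap2c.L, an AP-2 factor of ectoderm, fell from 20.1 ± 1.38 to 5.72 ± 0.343 CPM (log2 -1.81 ± 0.17 SE, edgeR adjusted p = 6.96e-04). The Krüppel-like factor gene klf5.L went from 20.3 ± 1.66 to 10.2 ± 1.92 CPM (log2 -0.99 ± 0.18 SE, edgeR adjusted p = 0.0147). Its homeolog klf5.S, named to complete the count after its value was seen, fell by a like amount (-0.97 ± 0.19, edgeR adjusted p = 0.0194). The homeobox gene dlx5.S had 87 counts over the Control libraries and 0 over the genistein libraries, at least 25.5-fold lower when 3 counts in all genistein libraries are taken as the floor (adjusted p by edgeR 0.0085). The summed level of the 22 genes was 656 to 770 CPM in Control and 503 to 618 CPM in genistein, and dlx5.S was the 1 member at 0. Without Control 1, genistein 1 and genistein 3, the median of the 22 genes was -0.43, against -0.03 over all genes. Their part in the fall of esrp1 was not tested.

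In genistein 5 of these 22 copies were called lower against BIO and 5 against Chiron, where 2.94% and 2.17% of all genes were, and 0 were called higher. Besides tfap2c.L and dlx5.S these were tfap2a.L, tfap2a.S and grhl3.L, a grainyhead factor of surface epithelium. Of these, tfap2a.L, tfap2a.S and grhl3.L were not called in genistein against Control. For tfap2a.L the level was 1.27 ± 0.467 CPM in genistein, 9.70 ± 0.228 in BIO and 8.94 ± 2.503 in Chiron (edgeR adjusted p = 0.005 and 0.00415). In BIO against Control 1 of the 22 rose, where 0.016% of all genes did: tfap2a.L, at 9.70 ± 0.228 against 1.33 ± 0.646 CPM (edgeR adjusted p = 0.0435). In that contrast the esrp1 copies had values of -0.12 and -0.18. For Chiron against Control edgeR called 0 of the 22, where 0% of all genes were called. An unadjusted p under 0.05 was found for 8 of the 22 in BIO and 9 in Chiron against Control. Over all 18791 genes these counts were 1102 and 1131. DESeq2 called 4 of the 22 higher and 0 lower in each of these contrasts, where it called 44 and 31 of all genes higher.

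The genes whose transcripts ESRP proteins splice in mammals were next in order. Of 28 tested copies, 1 fell and 0 rose in genistein against Control, a share near the 3% of all genes called lower, and 10 had an unadjusted p under 0.05. The median was -0.08. DESeq2 called 2 higher and 2 lower, where it called 642 and 1058 of all 18892 genes. The fit with the mitochondrial covariate called 4 higher and 6 lower, where it called 1612 and 2042 of all 18791 genes. The gene that fell was exoc7.L, a subunit of the exocyst that tethers secretory vesicles, at 5.35 ± 1.30 CPM in genistein and 12.3 ± 2.28 in Control (log2 -1.20 ± 0.20 SE, edgeR adjusted p = 0.0121). It was also lower in genistein against BIO and against Chiron (log2 -1.12 and -1.06, edgeR adjusted p = 0.0171 and 0.025). The other call of the list was nf2.L, which encodes the membrane scaffold merlin, at 58.7 ± 8.61 CPM in genistein against 91.2 ± 5.52 in Chiron (log2 -0.64 ± 0.15 SE, edgeR adjusted p = 0.0477). BIO and Chiron against Control each had 0 calls among the 28 by edgeR, where 0.0266% and 0% of all tested genes were called. Each also had 0 at an unadjusted p under 0.05, where 1102 and 1131 of all tested genes had one, and 0 by DESeq2.

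Other splicing regulators gave no edgeR call in genistein against Control, where 0.362% of all genes rose and 3% fell. A list of alternative splicing regulators, such as the Rbfox, Mbnl, Celf, Ptbp and Qki families, had 31 tested copies. Of these, edgeR called 0 in genistein against Control, 6 had an unadjusted p under 0.05, and DESeq2 called 3 higher and 1 lower. Their median was -0.05, and it was 0.07 without Control 1, genistein 1 and genistein 3. Of 55 copies of SR protein, hnRNP and core splicing genes edgeR called 0, and 8 had an unadjusted p under 0.05. DESeq2 called 4 of them higher and 0 lower, and their median was 0.14. Over all 18791 genes 3958 had an unadjusted p under 0.05, and DESeq2 called 642 of 18892 higher and 1058 lower. Without Control 1, genistein 1 and genistein 3 the median of the second list was 0.35, against -0.03 over all genes. With the mitochondrial covariate 3 rose and 4 fell of the first list, and 10 rose and 3 fell of the second. That fit called 1612 of all 18791 genes higher and 2042 lower. Whether these lists differ from esrp1 was not tested.

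Of 11 mesenchymal genes listed, 4 were found in the table, with 6 tested copies: snai1.S, which encodes a SNAI repressor, vim.L and vim.S for the filament protein vimentin, fn1.L and fn1.S for fibronectin, and the homeobox gene prrx1.L. No ZEB gene was among the tested copies. In genistein against Control edgeR called 0 of these 6, where 0.362% of all genes rose and 3% fell. In that contrast 0 of the 6 had an unadjusted p under 0.05 and DESeq2 called 0. Their summed level was 624 to 952 CPM in Control and 862 to 1098 CPM in genistein. Their median was 0.18 on the log2 scale, and 0.16 without Control 1, genistein 1 and genistein 3. Markers of the germ layers and of other embryonic regions were detected in every library, with lowest library sums of 610.5 CPM for 15 mesoderm genes, 22.2 CPM for 9 endoderm genes, 29.8 CPM for 15 organizer genes, 1587 CPM for 11 neural ectoderm genes and 790 CPM for 9 germ plasm genes. In genistein against Control 3 of the 11 neural ectoderm genes fell and 0 rose, where 3% of all genes fell. Of the 11 values 8 were below 0. Among the 3 were sox3.L (-0.78 ± 0.18) and zic1.S (-1.93 ± 0.42), both transcription factor genes (edgeR adjusted p = 0.038 and 0.0331). DESeq2, run on the unfiltered table, called 2 of 13 lower, where it called 1058 of all 18892 genes lower. The summed level of the 11 genes ran from 1626 to 2361 CPM in Control and from 1629 to 2871 CPM in genistein.

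In genistein against Control the other 4 of these lists had 0 edgeR calls in the reported fit, where 0.362% of all genes rose and 3% fell. Of the organizer genes 1, dkk1.L, for a secreted Wnt inhibitor, was at 0 counts in genistein, and it was not called in the reported fit. At an unadjusted p under 0.05 the counts were 3 for mesoderm, 0 for endoderm, 3 for organizer and 4 for germ plasm, and DESeq2 called 0, 0, 0 and 1. Medians were 0.56, -0.06, -0.40 and 0.65, and without Control 1, genistein 1 and genistein 3 they were -0.55, -1.03, -1.46 and 0.03. With the mitochondrial covariate 5 of 15 organizer genes fell, 2 mesoderm and 4 germ plasm genes rose, and 0 endoderm genes were called. That fit called 1612 of all genes higher and 2042 lower. When scaled by library totals, 1 organizer gene fell, where 754 of all 18791 genes did. The part of these lists in the fall of esrp1 was not tested.

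Genes that lie beside the esrp1 copies did not fall with them as a block. By the order of genes in the RefSeq table, the 5 nearest tested genes on each side of esrp1.L had log2 values from -0.43 to 0.64 in genistein against Control, with a median of -0.00. Of these 10, edgeR called 0, where 0.362% of all genes rose and 3% fell. An unadjusted p under 0.05 was found for 2 of them, and DESeq2 called 0. The 10 genes beside esrp1.S ranged from -0.99 to 0.32 with a median of -0.01. Of these 1 was called, ankrd46.S, an ankyrin repeat gene 5 places away among tested genes (-0.99 ± 0.20, edgeR adjusted p = 0.0252). On one side, cibar1 is the nearest tested gene to esrp1 in both subgenomes. The next tested gene is virma, for a subunit of the RNA m6A methyltransferase complex. Listed genes that were not tested may lie between them. The values were 0.01 ± 0.40 for cibar1.L and -0.30 ± 0.20 for virma.L, and 0.17 ± 0.20 for cibar1.S and 0.09 ± 0.19 for virma.S, none past the test.

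**Figure D5:**
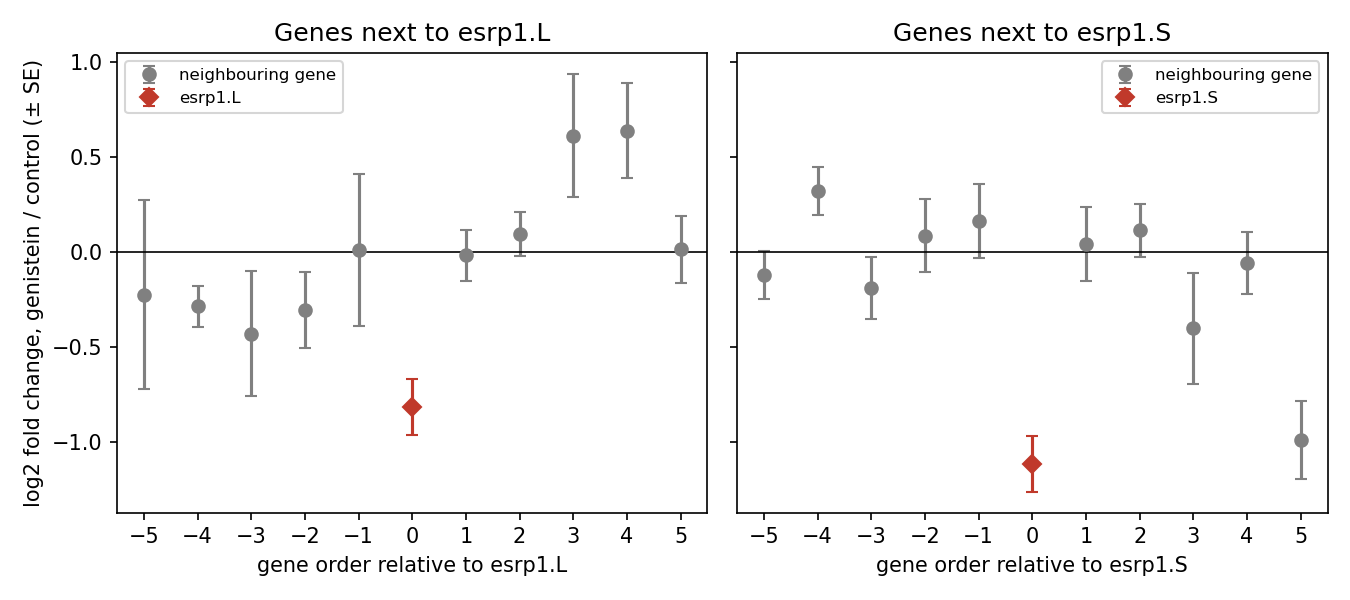
Log2 fold change (± SE) in genistein against Control for esrp1.L (left) and esrp1.S (right) and the 5 tested genes on each side in gene order. The esrp1 copies lie at -0.81 and -1.11, and the neighbours between -0.99 and 0.64.

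Over the 12 libraries the genes most like esrp1.S in log2 CPM, of 15348 named genes with a mean of at least 1 CPM, were fzr1.L (Pearson r = 0.99), which encodes an activator of the anaphase-promoting complex, pimreg.L (0.99), a mitotic regulator, and sall4.S (0.99), a zinc finger factor. They were followed by dcaf8.S, a substrate receptor of a ubiquitin ligase, and kif11.S, a spindle kinesin (0.98 each). Most like esrp1.L were ppargc1a.L, a transcriptional coactivator (0.98), rttn.S, a centriole gene (0.98), b4galt3l2.S (0.98), vps72.S, a chromatin remodelling subunit (0.98), and ppp2r3b.L, a phosphatase subunit (0.97). All 10 were called lower in genistein against Control, where 3% of all genes were. They were picked over the same libraries, in which esrp1 was lowest in genistein, so this count follows from the choice and is a description. They had log2 values from -1.26 for sall4.S to -0.58 for vps72.S. For deviations from the group means the r values were 0.82 to 0.97 for the S copy's list and 0.85 to 0.96 for that of the L copy. The points share libraries and the split in mitochondrial share, and by Spearman's rho only 1 of the 5 genes was kept for each copy (fzr1.L and b4galt3l2.S).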

How the data were processed

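The deposited table holds raw read counts, 1 row per gene and 1 column for each of the 12 libraries. STAR 2.5.2b and edgeR are named, without their roles, per the submitters' processing notes. For the genome build, annotation, counting tool and strand setting: not given in the sources used here. Libraries came from 60 ng of total RNA, per the labels' protocols.

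The analysis used edgeR 4.0.16 in R 4.3.3. The function filterByExpr kept 18791 of 18892 genes, library sizes were scaled by TMM, and a quasi-likelihood model with 1 mean per group was fitted to all 12 libraries (common biological coefficient of variation 22.4%). The 6 contrasts between groups were tested with glmQLFTest and adjusted by Benjamini-Hochberg over all tested genes. Standard errors are those implied by the F statistic, and 95% intervals use the fit's degrees of freedom. DESeq2 1.42.0, other scalings, a replicate block, log2 of the mitochondrial share (12 genes) as a covariate and fits without libraries were alternatives. The pipeline was tested on simulated counts.

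The members, the 11 gene lists and the alternatives were chosen with earlier results of these data known. Named genes are the members, up to 3 called genes per list and contrast, and the 5 genes most like each member. The values of 1 gene that this rule names are not reported here. Of the table's names, 17475 matched a symbol in the RefSeq table, which gave gene order, gene overlaps and gene types. The labels do not say that replicates came from separate clutches, so p-values measure only how these samples vary, possibly for technical reasons. Between replicates of a group the chi-square per degree of freedom was 2.29 or more, so no library was a copy of another in its group. Libraries of different groups were not compared in this way. Intervals on counts and floors cover counting error only.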

Additional observations from a re-analysis of the deposited data

How the results depend on the processing

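In the 3 contrasts with genistein, esrp1.L, esrp1.S and the summed copies kept negative log2 values under all alternatives run. With only the 6 libraries of a pair in the fit no call was reached: the values were -0.82, -1.12 and -0.93 (esrp1.L, esrp1.S, summed) against Control, -0.69, -0.93 and -0.79 against BIO, and -0.94 and -0.74 (esrp1.S, summed) against Chiron. Here fewer samples give the spread. Without Control 1, genistein 1 and genistein 3 the calls lost were esrp1.L and the summed copies against BIO (-0.39 and -0.46) and the summed copies against Chiron (-0.40), and the cause was not tested. DESeq2 called esrp1.L against Chiron (-0.56). With the replicate number as a block the summed copies against Chiron missed the threshold (-0.75, edgeR adjusted p = 0.0512), and no other call of the members changed. The labels do not say what the numbers mark. The correlation of same-numbered deviations was above 0.1 in 5 of 18 pairs (-0.55 to 0.77), and for genistein and Control it was 0.68, 0.77 and -0.26 for replicates 1, 2 and 3, so the numbers were not taken to pair the samples. The block gave 19 genes higher and 381 lower in genistein against Control, against 68 and 564 without it.

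Leaving out single libraries gave -0.99 to -0.69 for esrp1.L, -1.25 to -1.04 for esrp1.S and -1.08 to -0.82 for the summed copies against Control. Against BIO the ranges were -0.85 to -0.57, -1.05 to -0.83 and -0.93 to -0.67, and against Chiron -0.75 to -0.48, -1.07 to -0.88 and -0.87 to -0.60. For BIO against Chiron, never called, they were -0.12 to 0.054 for esrp1.S and -0.016 to 0.10 for the summed copies, with both signs. The L share difference between genistein and Control was 4.00 to 5.41 percentage points.

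Scaling by library totals shifted the median of all genes in genistein against Control from 0.03 to -0.09, and esrp1.L and esrp1.S then stood at -0.92 and -1.23. Counts of called genes moved more. In genistein against Control 68 higher and 564 lower became 18 and 754 with library totals, 1612 and 2042 with the covariate, 339 and 970 without the 3 libraries, 642 and 1058 with DESeq2, and 0 and 1 with 6 libraries. Leaving out single libraries gave 5 to 2317 higher and 176 to 2440 lower there, 1 to 4549 higher and 47 to 4262 lower against BIO, and 3 to 4651 higher and 104 to 4474 lower against Chiron, each highest without genistein 2. Over the other alternatives lower calls ran from 0 to 1514 (553 in the reported fit) against BIO and from 17 to 1348 (407) against Chiron. Higher calls ran from 0 to 2366 (130) and 0 to 2590 (34). BIO against Control gave 0 to 131 higher (3) and 0 to 74 lower (2), and Chiron against Control 0 to 119 and 0 to 27 (0 and 0). The share per coding length was not run, because no transcript lengths were used. The effect of depth was not tested.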
